A study of Rattus norvegicus with 17 samples.

Results

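Icam1 and Vcam1 encode a pair of leukocyte adhesion receptors of the immunoglobulin superfamily, and they were followed here through 17 RNA sequencing libraries of rat lung parenchyma. The genes were chosen by identifier, as ENSRNOG00000020679 for Icam1 and ENSRNOG00000014333 for Vcam1, and make up 2 of the 32753 genes in the count table. The table lists identifiers only, so the pairing of these identifiers with the names was taken as given with the choice of the pair. All rats carried the strain label RjHan:WI. The 6 control libraries came from rats given NaCl. In 5 libraries the rats had received bleomycin (1 mg per kg). In 6, called treated below, they had received the same dose of bleomycin together with BI1015550 (2.5 mg per kg). The bleomycin libraries are numbered 7, 8, 9, 11 and 12, so 1 number is skipped, while the other groups have unbroken numbers. The labels do not say whether a bleomycin library was left out. Bleomycin is a cytotoxic drug that injures the lung and leads to fibrosis in rodents, and BI1015550, by the series title, inhibits PDE4B, an enzyme that breaks down cyclic AMP. The labels used here give no age, sex, route or day of sampling, and do not say whether each library came from its own animal. The p-values therefore rest on library-to-library spread alone, which may be technical.

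ICAM-1 binds the beta-2 integrins LFA-1 and Mac-1 on neutrophils, monocytes and lymphocytes, and holds them firmly to the vessel wall before they leave the blood. In healthy lung it is known from endothelium and also from alveolar type I epithelial cells. VCAM-1 binds the integrin VLA-4 on lymphocytes, monocytes and eosinophils, is sparse on resting endothelium, and is also made by some mesenchymal cells. Both genes are textbook targets of the transcription factor NF-kappaB downstream of TNF and interleukin-1.

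The RefSeq promoters of both genes are shown because the pair is classically described as induced through the same factor. Yet against control the counts moved in opposite directions. From bleomycin to treated both log2 fold changes were negative, -0.046 for Icam1 and -0.32 for Vcam1, and neither passed the threshold. The sequences were matched by symbol in the RefSeq table (2 of 2 found, build GRCr8, which is not the build of the counts) and hold the 250 bases before the start that this table uses. Capitals mark matches to GGNNNTTCC, 1 form of the NF-kappaB letters, and to the TATA letters TATAAA, each searched on both strands. The Icam1 stretch is chr8:27829595-27829844 on the plus strand and the Vcam1 stretch is chr2:206742784-206743033 on the minus strand, both printed 5′ to 3′.
Icam1: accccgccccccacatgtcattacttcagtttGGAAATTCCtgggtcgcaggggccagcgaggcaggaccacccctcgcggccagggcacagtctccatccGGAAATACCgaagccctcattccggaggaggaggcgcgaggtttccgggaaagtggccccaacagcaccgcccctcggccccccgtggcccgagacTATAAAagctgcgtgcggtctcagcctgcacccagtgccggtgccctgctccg
Vcam1: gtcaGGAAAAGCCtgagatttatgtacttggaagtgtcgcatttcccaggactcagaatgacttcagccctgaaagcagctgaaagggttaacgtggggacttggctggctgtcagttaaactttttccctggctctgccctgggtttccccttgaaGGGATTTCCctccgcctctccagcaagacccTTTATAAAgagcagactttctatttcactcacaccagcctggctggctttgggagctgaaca

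Each promoter held 2 matches to this 1 form of the NF-kappaB letters. Other forms were not searched, so the number of possible NF-kappaB sites is not given by this count. The lower-case stretch gggtttcccc, shortly before GGGATTTCC in Vcam1, cannot match the form searched and was not assessed. At least 1 match was found in 15.4% of all 33469 rat promoters of the same length, and the share with 2 was not computed. In Icam1 the matches began 218 and 149 bases before the start, and GGAAATTCC reads as a match on either strand and was counted once. In Vcam1 they began 246 and 93 bases before the start. The TATA letters lay 53 bases before the Icam1 start and 60 before the Vcam1 start, where a second match on the other strand overlaps the first. TATA letters occur in 12.9% of all promoters. The cAMP response element TGACGTCA (1.59% of promoters) and the AP-1 letters TGANTCA (6.34%) had no match in either window, and the STAT letters TTCNNNGAA (7.67%) had 1 match in Icam1 and none in Vcam1. Such matches are descriptions of letters, and the counts give no measure of binding. The GC content of the stretch was 66% for Icam1 and 50.4% for Vcam1. In the RefSeq table no other gene overlaps either gene, and Icam1 is followed directly by Icam4 and Icam5, members of the same family. How reads shared by related or overlapping genes were counted is not given in the sources used here.

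The libraries held between 14609389 and 18462105 counts, with the lowest totals in the treated group. On the first principal component of all tested genes the groups did not overlap, with controls from -38.4 to -25.7, treated libraries from -13.4 to 8.57 and bleomycin libraries from 25.5 to 68.2. Treated libraries 13 and 17 lay closest to the controls (-13.4 and -11.6). Levels below are CPM, counts scaled by library size, with the sizes adjusted by TMM (trimmed mean of M values). The tissue label was not checked against marker genes, since the identifiers carry no names. In whole tissue, fewer cells of a type and less RNA per cell cannot be told apart.

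Icam1 was the more heavily counted gene, with 5422 to 10263 counts in a library. Its mean of 461 CPM over all libraries ranked 242 among the 15000 genes tested. Vcam1 had 1757 to 3565 counts in a library, and its mean of 163 CPM ranked 1214. Transcript lengths were not used, so the levels of the 2 genes are not compared with each other. At these counts the counting error was at most 1.36% of an Icam1 value and 2.39% of a Vcam1 value, below the spread between libraries in each group. The coefficient of variation for Icam1 was 9.25% in controls, 6.22% with bleomycin and 9.02% in treated lungs. For Vcam1 it was 15% in controls, 8.55% with bleomycin and 17.9% in treated lungs. Among the 2309 genes with a mean of at least 100 CPM, the median was 11.3%, 12.8% and 9.64% in the same order. The share of these genes that varied less than Vcam1 was 69.7% in controls, 26.6% with bleomycin and 82.7% in treated lungs. For Icam1 the share was 37.8%, 12.5% and 45.6% in the same order.

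Icam1, the ligand of the beta-2 integrins, fell with bleomycin and was also below control in treated lungs. In controls it stood at a median of 560 CPM, with 443 as the lowest value (library 5) and 575 as the highest (library 6). The other 5 controls lay between 536 and 575 CPM. The bleomycin libraries held 409 CPM in library 7, 465 in library 8, 406 in library 9, 437 in library 11 and 406 in library 12. In treated lungs the lowest value was 354 CPM (library 15), the median 411 and the highest 457 (library 16). All but 1 control stood above every bleomycin and treated library, and control library 5 stood within both of the other groups.

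Vcam1, the ligand of VLA-4, moved the other way. In controls it ran from 91.8 CPM (library 2) through a median of 125 to 139 CPM (library 6). With bleomycin it stood at 233 CPM in library 7, 215 in library 8, 214 in library 9, 190 in library 11 and 193 in library 12. Every bleomycin library therefore stood above every control. Treated lungs spread between the other groups, from 132 CPM (library 13) through a median of 163 to 212 CPM (library 14). Library 13 lay below the highest controls, libraries 14 and 18 lay within the bleomycin range, and the other three lay in the gap between the groups.

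**Figure D1:**
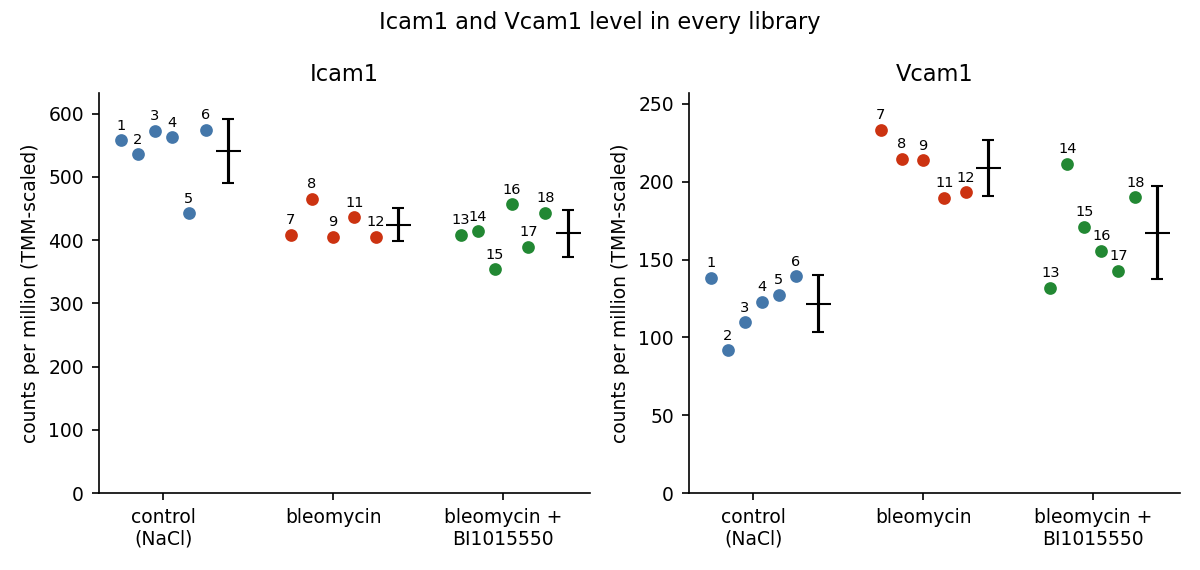
Level of Icam1 (left) and Vcam1 (right) in CPM for each library, numbered as in its label, with the mean and SD of each group in black (n = 6 controls, 5 bleomycin, 6 treated). Icam1 is lower in both bleomycin-injured groups apart from control library 5 at 443 CPM, while Vcam1 is highest with bleomycin and spread from 132 to 212 CPM in treated lungs.

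The first comparison asked what bleomycin did to the pair. Icam1 fell from 541 ± 50 CPM in controls (SD, n = 6) to 424 ± 26.4 CPM (SD, n = 5), a change of -21.6%. The log2 fold change was -0.35 (SE 0.083, 95% interval -0.53 to -0.18, edgeR quasi-likelihood adjusted p = 0.00335). Vcam1 rose from 122 ± 18.2 CPM (SD, n = 6) to 209 ± 17.9 CPM (SD, n = 5), or 1.72-fold. Its log2 fold change was 0.78 (SE 0.12, 95% interval 0.52 to 1.04, edgeR adjusted p = 0.000133). So both members passed the test, in opposite directions, against a background in which 38.3% of the 15000 genes tested were called, 20.2% as higher and 18% as lower. The larger part of the called genes changed with the scaling, with 3032 higher and 2706 lower here, 2793 and 2892 under upper-quartile scaling, and 2502 and 3308 with library totals alone.

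Read against that background, a call in itself sets neither gene apart. Vcam1 lay toward the upper end of the fold changes, with 7.69% of all tested genes rising more. Icam1 lay nearer the middle, with 20.7% of genes falling more, and 80% of all called genes had a larger change in size than it. No bleomycin library overlapped the control range for Vcam1, as was so for 18.1% of genes, whereas for Icam1 the ranges overlapped through control library 5. With 1 library left out in turn the Icam1 log2 fold change ran from -0.40 to -0.33 and the edgeR adjusted p from 0.000874 to 0.0103. The largest fall came without control library 5, the lowest control, whose removal raises the control mean.

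The second comparison asked how lungs given the compound differed from those given bleomycin alone. Neither gene passed the test, where 27.8% of the 15000 genes did. Icam1 averaged 411 ± 37.1 CPM in treated lungs (SD, n = 6), and its log2 fold change from bleomycin to treated was -0.046 (SE 0.083, edgeR adjusted p = 0.708). The 95% interval ran from 0.859-fold to 1.09-fold. The control level, 1.28-fold above bleomycin, lay outside this interval, while small changes in either direction lay inside it. With library totals alone as the scaling, the Icam1 log2 fold change was 0.0070, on the other side of 0.

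Vcam1 averaged 167 ± 29.9 CPM in treated lungs (SD, n = 6), against 209 with bleomycin alone. The log2 fold change was -0.32 (SE 0.12, 95% interval -0.58 to -0.064), with an unadjusted p of 0.0174 and an edgeR adjusted p of 0.0586, just above the threshold of 0.05. The call depended on single libraries and on the tool. The edgeR adjusted p was 0.021 without treated library 14 and 0.0481 without treated library 18, and DESeq2 gave 0.0457. The other 9 of the 11 fits with 1 library left out stayed above 0.05, with an edgeR adjusted p up to 0.128. An adjusted p of 0.0815 came from limma voom with sample quality weights. Leaving out treated libraries 13 and 17 together gave a log2 fold change of -0.20 (edgeR adjusted p = 0.279). These libraries held the lowest treated Vcam1 values, 132 and 143 CPM, so their removal had to move the treated mean toward bleomycin. CPM ranges of the 2 groups overlapped for both genes, as they did for all but 14.1% of the genes tested.

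The third comparison asked what still separated treated lungs from controls. Here too Icam1 was lower and Vcam1 higher, and both passed the test, where 8.39% of the 15000 genes did. Icam1 differed by a log2 fold change of -0.40 (SE 0.079, 95% interval -0.56 to -0.23, edgeR adjusted p = 0.00527), or -24%. In this comparison 1.82% of the tested genes had a smaller p than Icam1, and 4.7% had a smaller p than Vcam1. By size of change, 79% of the called genes exceeded Icam1 and 70.2% exceeded Vcam1. Vcam1 differed by a log2 fold change of 0.46 (SE 0.12, 95% interval 0.21 to 0.71, edgeR adjusted p = 0.0229), or 1.37-fold. For Vcam1 the edgeR adjusted p rose to 0.0523 when control library 2 was left out. It was 0.0541 when either control library 3 or treated library 14 was left out. CPM ranges overlapped for both genes, with 5.59% of genes showing no overlap. This comparison shares its control libraries with the first and its treated libraries with the second.

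**Figure D2:**
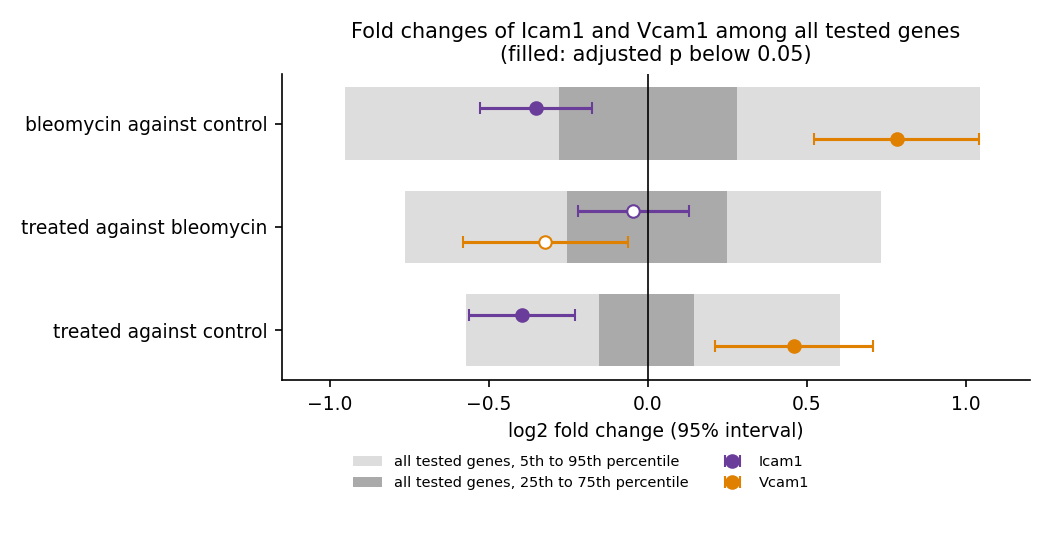
Log2 fold change of Icam1 and Vcam1 in the 3 comparisons with 95% intervals (points, filled where the edgeR adjusted p is below 0.05), over the central part of the fold changes of all 15000 tested genes (grey bars). Icam1 lies at -0.35, -0.046 and -0.40 from top to bottom and Vcam1 at 0.78, -0.32 and 0.46.

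By level, the order for Icam1 was control, bleomycin, treated, and bleomycin and treated did not pass the test for a difference. For Vcam1 the order was bleomycin, treated, control. Its neighbours bleomycin and treated were not separated at the threshold, whereas treated and control were, subject to the 3 libraries named above.

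The number of Vcam1 counts per Icam1 count within a library does not depend on how libraries are scaled. It showed whether the genes moved by the same factor. Against control, both genes had already been called in opposite directions from the same counts. A higher ratio in those 2 comparisons therefore restates the earlier calls without dependence on scaling, and is not a separate finding. In controls the ratio ran from 0.171 (library 2) through a median of 0.23 to 0.288 (library 5). With bleomycin it was 0.571 in library 7, 0.462 in library 8, 0.527 in library 9, 0.434 in library 11 and 0.476 in library 12. In treated lungs it ran from 0.323 (library 13) through a median of 0.397 to 0.511 (library 14). Neither bleomycin nor treated libraries overlapped the controls, while treated and bleomycin libraries overlapped each other. How often the ratios of other gene pairs separate the groups was not computed. The separation is therefore not shown to be particular to this pair.

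The ratio was 2.2-fold higher with bleomycin than in controls, a log2 difference of 1.14 (SE 0.13; exact permutation test, two-sided, p = 0.00433, the smallest that 5 against 6 libraries allow; adjusted p = 0.00649 over 3 comparisons). In treated lungs it was 1.8-fold higher than in controls, a log2 difference of 0.85 (SE 0.16; exact permutation test, p = 0.00216, the smallest that 6 against 6 allow; adjusted p = 0.00649). Between treated and bleomycin lungs the log2 difference was -0.29 (SE 0.13; exact permutation test, p = 0.0736, adjusted p = 0.0736). That difference had an adjusted p of 0.0476 in the exact permutation test without treated library 14 or without treated library 15. The other 9 of the 11 omissions of 1 library left the exact permutation adjusted p above 0.05, up to 0.162. With medians in place of means it was 0.134. Without treated libraries 13 and 17 together the log2 difference was -0.17 (exact permutation test, adjusted p = 0.27). Their log2 ratios, -1.63 and -1.45, lay below the treated mean of -1.31, so their removal had to move that mean toward bleomycin.

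**Figure D3:**
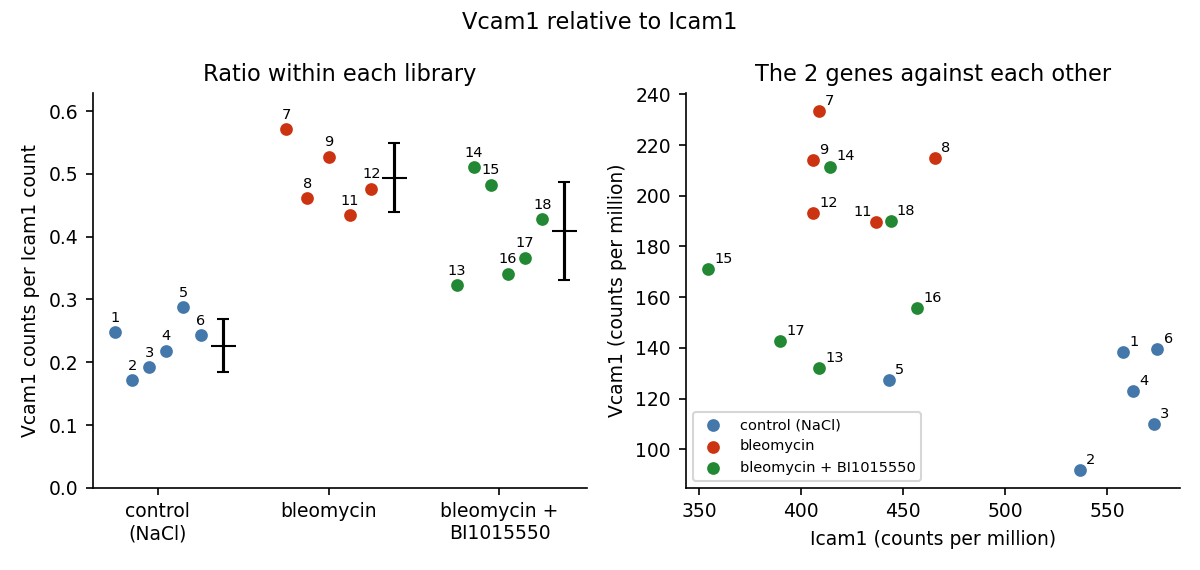
Left, Vcam1 counts per Icam1 count in each library, with the mean and SD of each group in black; right, Vcam1 against Icam1 in CPM, 1 point per library numbered as in its label. Controls reach at most 0.288 on the left, below the lowest treated library at 0.323 and the lowest bleomycin library at 0.434.

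Joint variation of the 2 genes across libraries was examined within the control and treated groups, and none was detected there. The bleomycin group, with 5 libraries, was smaller and was not examined, although a correlation can be computed over 5 libraries. In the 6 controls the log2 CPM values had a Pearson r of -0.0047 (exact permutation p = 0.819) and a Spearman rho of 0.314 (exact permutation p = 0.564). In the 6 treated libraries the Pearson r was 0.125 (exact permutation p = 0.831) and the Spearman rho 0.257 (exact permutation p = 0.658). All 4 adjusted p-values were 0.831. Without the 2 libraries farthest from the median of Icam1 the Pearson r was -0.29 in controls and 0.592 in treated lungs, each over 4 libraries. Groups of 6 leave wide room for relations that these tests cannot show.

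Likeness to other genes was described by Pearson r of log2 CPM over the 17 libraries, against 11724 genes with a mean of at least 5 CPM. These points share the group differences, so r is also given after group means were removed. The genes were picked for their r over the same libraries, so both values describe that choice and support nothing further. The gene most like Icam1 was ENSRNOG00000016145 (r = 0.9, and 0.68 within groups), at 99.7 ± 4.65 CPM in controls, 88.6 ± 3.85 with bleomycin and 84.6 ± 4.57 in treated lungs. It fell with bleomycin by a log2 fold change of -0.17 (edgeR adjusted p = 0.0248), a smaller change than that of Icam1. The gene most opposed to Icam1 was ENSRNOG00000008602 (r = -0.94, and -0.86 within groups). It stood at 40.8 ± 11.1 CPM in controls, 121 ± 24.2 with bleomycin and 114 ± 16 in treated lungs, and rose with bleomycin by a log2 fold change of 1.57 (edgeR adjusted p = 4.74e-06).

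The gene most like Vcam1 was ENSRNOG00000013452 (r = 0.94, and 0.77 within groups). Its level was 105 ± 7.91 CPM in controls, 155 ± 20.7 with bleomycin and 127 ± 11.3 in treated lungs. The treated mean again lay between those of the other groups. Unlike Vcam1 it passed the test for treated against bleomycin, with a log2 fold change of -0.29 (edgeR adjusted p = 0.0231), and whether the 2 genes differ in this respect was not tested. The gene most opposed to Vcam1 was ENSRNOG00000020763 (r = -0.94, and -0.78 within groups), at 348 ± 17 CPM in controls, 248 ± 20.8 with bleomycin and 281 ± 23.1 in treated lungs. It fell with bleomycin by a log2 fold change of -0.49 (edgeR adjusted p = 9.72e-05).

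**Figure D4:**
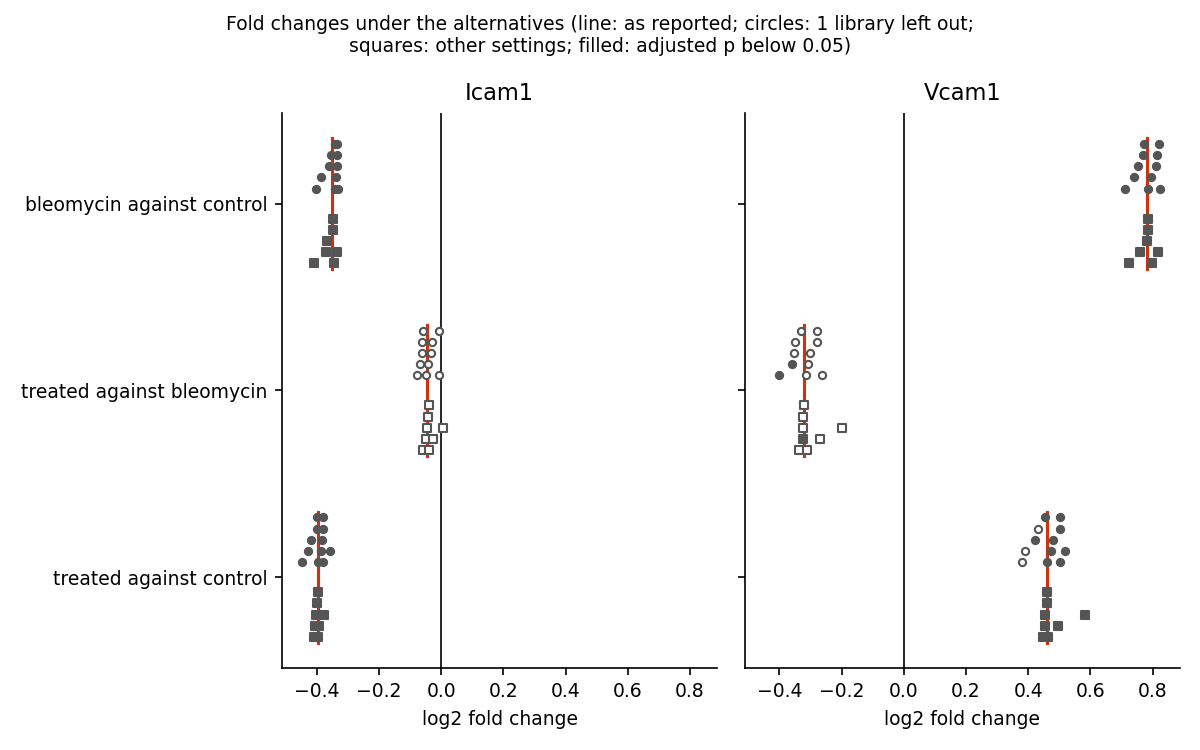
Log2 fold change of Icam1 (left) and Vcam1 (right) in each comparison with 1 library left out in turn (circles) and under other settings (squares), beside the value reported (line); filled symbols have an adjusted p below 0.05. Small vertical offsets keep symbols apart; for treated against control, Vcam1 has 3 open circles, and for treated against bleomycin it has 3 filled symbols.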

How the data were processed

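RNA from lung parenchyma was made into mRNA libraries with a TruSeq kit after column extraction, per the labels' protocols. The authors deposited 1 table of raw read counts per gene for 17 libraries. The submitters' processing notes name the aligner STAR (2.5.2), the counters featureCounts (1.5.1) and RSEM (1.3.0) and the build Rnor_6.0 among others. Which counter, annotation and strand setting were used is not given in the sources used here. In R 4.3.3, edgeR 4.0.16 was applied to the deposited counts: 15000 genes passed filterByExpr, TMM scaling was used, 1 quasi-likelihood model held the 3 groups, and p-values were adjusted over all tested genes (Benjamini-Hochberg, threshold 0.05). Each SE was obtained from the F statistic of the log2 fold change. Log2 CPM and log2 ratios used a prior count of 2, and single values were compared by exact permutation in SciPy 1.17.1. DESeq2 1.42.0, limma 3.58.1 voom with sample quality weights, other scalings, no filter, 2-group fits and omission of libraries were alternatives. The test was run first on simulated counts. The members and lists were chosen with earlier results of these data known. Besides the 2 members, genes were named by likeness only: the highest and the lowest r per member. Lists of adhesion pathway genes and cell type markers, given by symbol, were not used here, since the identifiers could not be paired with symbols.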

Additional observations from a re-analysis of the deposited data

Results flagged for a closer look

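Among 9 groups of library values examined (the CPM of each gene and their count ratio in 3 groups), 1 held a library far from the rest, where chance gives about 1 in 20 groups. A single such group among 9 is not beyond what chance can give. The ratios share their counts with the CPM values, so the 9 groups are not independent. Control library 5 held 443 CPM of Icam1 and the other five held 536 to 575 CPM, so that the gap was 0.71 of the range of the group, above the limit of 0.625 in Dixon's test. No explanation was tested for this value.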

How the results depend on the processing

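Of 220 alternative values, 206 kept their direction and their side of the threshold, or, for counts of genes, stayed within 1.5 times. Both genes kept direction and call for bleomycin against control under all 18 alternatives run for each, as did Icam1 for treated against control under its 20. For treated against bleomycin, Icam1 turned to a log2 fold change of 0.0070 with library totals alone (not past the threshold either way), and Vcam1 ranged from -0.40 to -0.26 with 1 library left out and was -0.32 with DESeq2, which passed the threshold. Vcam1 for treated against control ranged from 0.38 to 0.52 with 1 library left out. The ratio of Vcam1 to Icam1 for treated against bleomycin ranged from -0.36 to -0.22 on the log2 scale with 1 library left out. Genes called for treated against bleomycin numbered 4163, and 1929 without treated libraries 13 and 17. For treated against control 1259 genes were called, 794 to 1216 with 1 library left out and 2546 with limma voom and sample quality weights, where voom without weights was not run. The cause of these shifts was not tested, and no other pair of libraries was left out for comparison. The ratio without treated libraries 13 and 17 was added after seeing the data. The edgeR fits without them were planned, but the labels do not set these libraries apart. They stand out by the first principal component of the same data, so this omission is not independent of the data either. No paired analysis was possible because no replicate number occurs in more than 1 group.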
